A study of Mus musculus with 4 samples.

Results

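The 8 genes described here are T-box transcription factors other than Tbx1: Tbx22, Tbx2 and Tbx3, Tbx15, Tbx18, Tbx20, Eomes and Tbr1. They were taken by name from the 22180 named genes, and each was read by a single transcript cluster, the probe set of 1 gene. Their RNA levels were read on 4 Affymetrix Mouse Gene 2.0 ST arrays, 1 array per group. The groups were palatal shelves at embryonic day 13.5 (E13.5) and heads at E12.5, each from Tbx1 knockout embryos and from wild-type embryos. All embryos were on a mixed C57BL/6J and FVB/N background. Palatal shelves are the outgrowths of the upper jaw that meet and fuse to form the secondary palate. Which part of Tbx1 was deleted, how the allele was made and whether embryos were pooled is not stated in the labels. The data were used to ask whether any of these relatives was higher where Tbx1 was missing, and in which tissue each was read.

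T-box proteins share a DNA-binding domain, the T-box, that recognises closely similar sequences, so relatives expressed in the same cells may bind the same sites. Some members mainly activate their targets and others, such as Tbx2, Tbx3 and Tbx22, mainly repress them. In the face they act in mesenchyme of the jaws and palate, and in the brain Eomes and Tbr1 mark successive steps in the making of cortical projection neurons.

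RefSeq windows around annotated start sites (250 bases before to 50 after, GRCm38.p6) were at hand for 5 of the 8 genes, and 4 are shown here because these genes separated the arrays by tissue most widely. Eomes, Tbr1 and Tbx18 had the largest head enrichment of the set, and Tbx22 had the largest shelf enrichment. Capitals mark CpG dinucleotides, and each line is written 5′ to 3′ on the strand of the gene. The windows are chr9:118477939-118478238 (plus strand) for Eomes, chr2:61804203-61804502 (plus) for Tbr1, chr9:87731211-87731510 (minus) for Tbx18 and chrX:107667714-107668013 (plus) for the first of 3 annotated Tbx22 starts.
Eomes: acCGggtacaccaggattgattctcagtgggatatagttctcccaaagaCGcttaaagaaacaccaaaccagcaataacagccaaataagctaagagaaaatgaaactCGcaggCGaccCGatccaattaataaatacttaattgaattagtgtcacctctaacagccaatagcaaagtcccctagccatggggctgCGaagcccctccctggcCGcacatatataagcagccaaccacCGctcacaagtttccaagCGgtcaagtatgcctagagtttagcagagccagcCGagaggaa
Tbr1: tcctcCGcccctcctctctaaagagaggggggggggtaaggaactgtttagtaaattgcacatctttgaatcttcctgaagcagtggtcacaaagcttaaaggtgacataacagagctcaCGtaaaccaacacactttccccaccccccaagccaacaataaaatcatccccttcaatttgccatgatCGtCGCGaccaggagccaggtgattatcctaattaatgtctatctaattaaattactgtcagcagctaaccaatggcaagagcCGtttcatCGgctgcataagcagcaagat
Tbx18: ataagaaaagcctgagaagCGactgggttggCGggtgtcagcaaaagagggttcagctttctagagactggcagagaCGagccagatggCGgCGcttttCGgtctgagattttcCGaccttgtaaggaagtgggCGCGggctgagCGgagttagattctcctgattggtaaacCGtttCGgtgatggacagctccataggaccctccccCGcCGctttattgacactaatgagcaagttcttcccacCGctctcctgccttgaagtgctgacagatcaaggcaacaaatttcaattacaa
Tbx22: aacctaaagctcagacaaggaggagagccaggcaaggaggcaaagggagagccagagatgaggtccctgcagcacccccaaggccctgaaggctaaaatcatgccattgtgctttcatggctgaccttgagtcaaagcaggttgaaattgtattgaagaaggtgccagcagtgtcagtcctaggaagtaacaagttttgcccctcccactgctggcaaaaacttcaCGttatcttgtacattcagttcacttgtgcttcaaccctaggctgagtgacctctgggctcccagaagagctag

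The Tbx22 window holds 1 CpG, and 14.1% of all 32851 windows hold no more than that. The other 2 Tbx22 windows hold 2 and 1. The Tbx18 window holds 15, the Eomes window 10 and the Tbr1 window 7, against a median of 7 over all windows. The Tbx20 window, not shown, holds 26. A core of the sequence recognised by T-box proteins, GGTGTG, searched on both strands (CACACC on the other), was found in 0 of the 7 windows of these 5 genes and in 19.0% of all windows. These counts describe the letters of the windows, and the arrays do not show which start site was used.

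Values are log2 expression after RMA, a procedure that sets all arrays to a common distribution and compresses differences of dim genes. A gene entered a pair of arrays when the higher of the 2 values reached 6.16, which is the median of all values of named genes. By that rule 7 of the 8 genes entered the head pair and 4 (Tbx22, Tbx2, Tbx3 and Tbx15) the shelf pair, while Tbx20 entered neither. Pearson's r over 41345 transcript clusters was 0.988 between the shelf arrays, 0.991 between the head arrays and 0.973 to 0.979 across tissues. Tbx1 itself was at 6.18 in knockout shelves, against 7.39 in wild-type shelves, and at 6.25 in the knockout head, against 6.83 in the wild-type head. The labelled tissues bore their markers, although the lists were chosen with earlier results of these data known and are no independent check. Of 19 palatal mesenchyme genes, 13 were higher in the shelves by the limma test described below, where 13.0% of all genes were. Among them were Osr2 with a log2 difference of 1.63 and Pax9 with 1.99. Fgf10, on the same list, entered through the shelves alone and so had to be higher there. All 12 neuronal markers were called higher in the head, where 14.9% of all genes were. Tubb3 was nonetheless still at 8.46 in knockout shelves and 7.88 in wild-type shelves.

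**Figure D1:**
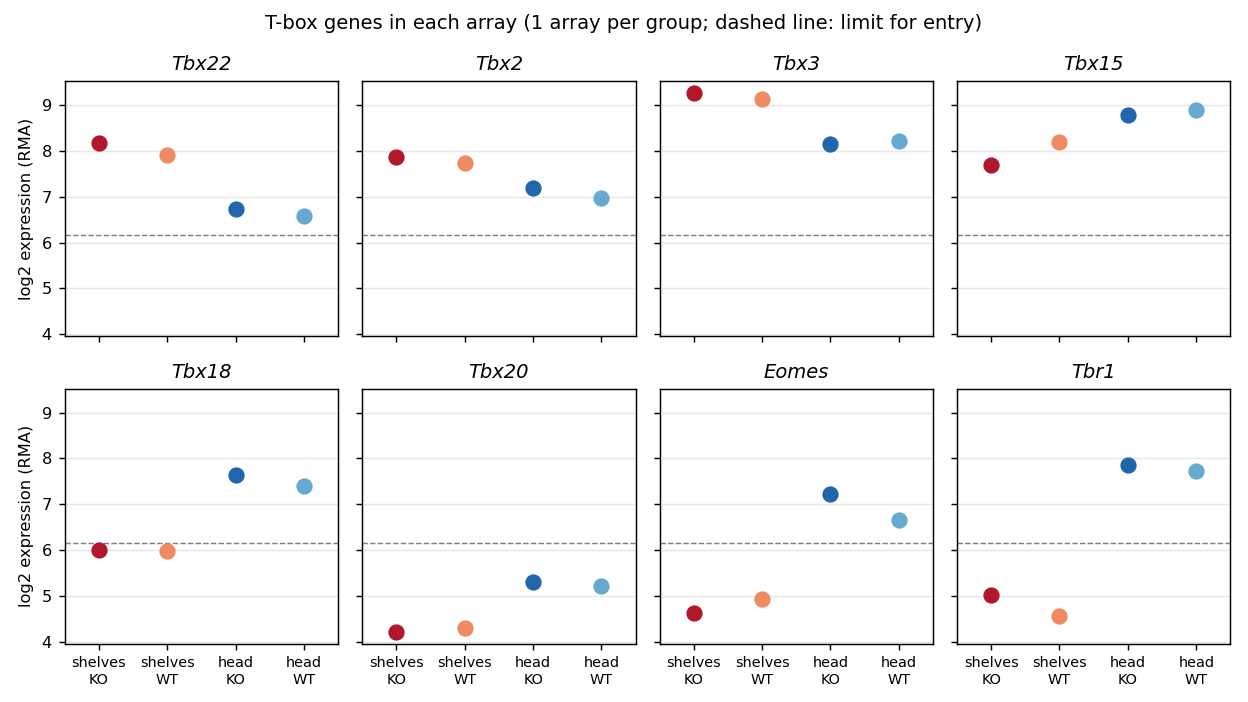
Log2 expression (RMA) of the 8 T-box genes in each array, with 1 point per array and the limit for entry (6.16) as a dashed line. For each gene the shelf points and the head points do not overlap; Tbx22, Tbx2 and Tbx3 lie higher in the shelves and the other 5 genes lie higher in the head.

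All 8 genes differed between palatal shelves and head by more than they differed between knockout and wild type. Tbx22, Tbx3 and Tbx2 were higher in the shelves, and Tbr1, Eomes, Tbx18 and Tbx15 were higher in the head. In the additive limma fit of genotype and tissue, 3 of the 7 genes that entered passed as higher in the shelves and 4 as higher in the head, where 13.0% and 14.9% of all 11999 genes did. Past 2-fold were 2 genes toward the shelves and 3 toward the head, beside 2.48% and 4.50% of all genes. The arrays of the tissues did not overlap for any of the 8 genes, which was also so for 69.0% of the genes in the fit. Tissue and stage changed together, so that an effect of the tissue and of 1 day of development cannot be told apart, and in bulk RNA fewer cells of a type and less RNA per cell cannot be told apart either. Eomes, Tbr1 and Tbx18 entered the fit through their head values alone and so had to be higher there.

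Tbx22 is a repressor whose loss in humans causes X-linked cleft palate and whose absence in mice leads to a submucous cleft. Its level was 8.18 in knockout shelves and 7.91 in wild-type shelves, and 6.74 in the knockout head and 6.57 in the wild-type head. Both shelf arrays were thus above both head arrays. The difference in the fit was 1.39 (SE 0.10, limma adjusted p = 0.000233), or 2.62-fold, and it was 1.44 between the knockout arrays and 1.34 between the wild-type arrays.

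Tbx3, a repressor of cell-cycle inhibitor genes mutated in human ulnar-mammary syndrome, was at 9.27 in knockout shelves and 9.14 in wild-type shelves. In the heads it was at 8.15 in the knockout and 8.21 in the wild type. The shelf arrays were again the higher ones, with a fitted difference of 1.02 (SE 0.11, limma adjusted p = 0.000826), 2.03-fold. Tbx2, its closest relative, was at 7.86 in knockout shelves and 7.73 in wild-type shelves, against 7.19 in the knockout head and 6.98 in the wild-type head. Its fitted difference of 0.71 (SE 0.10, limma adjusted p = 0.00291) was the smallest of the 7, 1.63-fold, with an interval of 0.47 to 0.95 (95%).

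In the genome Tbx2 neighbours Tbx4, and Tbx3 neighbours Tbx5, with 0 annotated protein-coding genes between the genes of either pair. Neither neighbour entered, so both were tested only in the fit without the filter on low values. Tbx4, a hindlimb and lung factor, was at 5.92 in knockout shelves and 5.91 in wild-type shelves, and at 5.79 in the knockout head and 5.56 in the wild-type head. Tbx5, a factor of heart, forelimb and dorsal retina, was at 4.63 in knockout shelves and 4.77 in wild-type shelves, and at 5.29 in the knockout head and 5.26 in the wild-type head. There Tbx5 had a difference of -0.58 (limma adjusted p = 0.0327), opposite in sign to that of Tbx3, and Tbx4 one of 0.24 (limma adjusted p = 0.303).

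Tbx15 and Tbx18 belong with Tbx22 to 1 branch of the family but were higher in the head. Tbx15, which in mice shapes the skull, the limb skeleton and the dermal pattern of the coat, was at 7.69 in knockout shelves and 8.20 in wild-type shelves, against 8.78 in the knockout head and 8.90 in the wild-type head. The fitted difference was -0.89 (SE 0.13, limma adjusted p = 0.00288), 1.86-fold. The gap between the tissues was -1.09 between knockout arrays and -0.69 between wild-type arrays, and the difference of these gaps could not be tested, because an interaction term leaves 0 residual degrees of freedom. Tbx18, a factor of somite, ureter and pericyte mesenchyme, was at 6.01 in knockout shelves and 5.99 in wild-type shelves, below the limit for entry, and at 7.64 in the knockout head and 7.40 in the wild-type head. Its fitted difference was -1.52 (SE 0.11, limma adjusted p = 0.000209), 2.87-fold.

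Eomes and Tbr1 had the largest differences of the set. Eomes, also called Tbr2, marks intermediate progenitors of the cortex. It was at 4.63 in knockout shelves and 4.93 in wild-type shelves, both dim, and at 7.23 in the knockout head and 6.65 in the wild-type head, with a fitted difference of -2.16 (SE 0.20, limma adjusted p = 0.000539), 4.47-fold. Its SE was the widest of the 7, since the gap was -2.60 between knockout arrays and -1.72 between wild-type arrays. Tbr1, which acts in the young projection neurons that follow, was at 5.01 in knockout shelves and 4.56 in wild-type shelves, and at 7.86 in the knockout head and 7.73 in the wild-type head. Its fitted difference was -3.01 (SE 0.12, limma adjusted p = 4.74e-05), 8.04-fold, and the shelf levels of both genes were under 6.16, in the range where RMA shrinks differences.

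Tbx20, needed in the heart and in cranial motor neurons, did not enter. It was at 4.21 in knockout shelves and 4.30 in wild-type shelves, and at 5.30 in the knockout head and 5.22 in the wild-type head. Its shelf minus head difference was -1.09 between knockout arrays and -0.92 between wild-type arrays. With no filter the fit called this tissue difference (SE 0.12, limma adjusted p = 0.00474), and all 4 values are those of a dim gene.

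**Figure D2:**
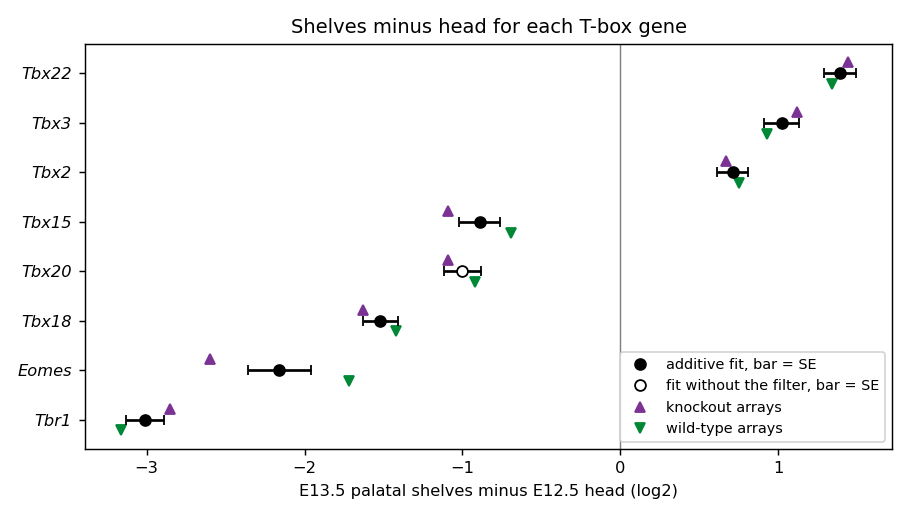
Palatal shelves minus head (log2) for each T-box gene, as the coefficient of the additive limma fit with its SE (circles; open for Tbx20, which came from the fit without the filter), between the knockout arrays (upward triangles) and between the wild-type arrays (downward triangles). Tbx22, Tbx3 and Tbx2 lie right of 0 in both genotypes and the other 5 genes lie left of it; Eomes has the widest spread between genotypes, -2.60 and -1.72.

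Of the other 8 T-box genes listed, 7 had a value and 2 entered. Mga, a large protein with a T-box and a second DNA-binding domain, was read at 9.55 in knockout shelves and 9.54 in wild-type shelves, and at 9.32 in the knockout head and 9.25 in the wild-type head. Its shelf minus head difference of 0.26 had a limma adjusted p of 0.102. Tbx10, a close relative of Tbx1, was at 6.06 in knockout shelves and 6.47 in wild-type shelves, and at 5.90 in the knockout head and 5.96 in the wild-type head, a tissue difference of 0.34 (limma adjusted p = 0.0805). Tbx10 entered through wild-type shelves alone and so had to be higher there. Neither was called between tissues, although Mga was with a mean-variance trend in the prior (limma adjusted p = 0.025). Tbx6, Tbx19 and Tbx21 stayed below the limit for entry in all 4 arrays, and T was not analysed here.

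No T-box gene of the set was 2-fold higher or lower in the knockout in either tissue. The share of all entering genes past 2-fold was 0.463% upward and 0.472% downward in knockout shelves, and 0.0352% upward and 0.0528% downward in the knockout head, so a count of 0 among so few genes is near that background. In the additive fit, 0 of the 7 genes and 0% of the 11999 genes tested had a limma adjusted p under 0.05. The test thus did not call the targeted gene itself, whose effect was -0.89 (SE 0.16, unadjusted p = 0.0011, limma adjusted p = 0.555). At an unadjusted p under 0.05 the counts were 2 of the 7 genes, Tbr1 and Tbx15, and 628 genes in all (5.23%). With 1 array per group the differences within a tissue have no replicate check, and the p-values lean on a prior spread from all genes with 5.49 degrees of freedom beside 1 residual degree of freedom.

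In the knockout shelves, the largest difference among the 4 genes that entered was that of Tbx15. It was 0.52 lower on the log2 scale (7.69 in the knockout and 8.20 in wild type, 1.43-fold), and 4.31% of the 11449 genes that entered differed by at least as much in either direction. Skeletal muscle genes were lower in the same array, with a mean level of 6.03 in knockout shelves and 7.09 in wild-type shelves over all 12 genes of the list, and their part in the Tbx15 value was not tested. Tbx22 was 0.27 higher (8.18 and 7.91), a size that 17.7% of genes reached. Tbx2 (7.86 and 7.73) and Tbx3 (9.27 and 9.14) were each higher by 0.12, a size that 48.5% and 47.7% of genes reached. Of these values, 3 were above 0 and 1 was below, with a median of 0.12 beside 0.021 over all genes.

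The remaining 4 genes were too dim in the shelves to enter. Tbr1 was 0.45 higher in the knockout shelves (5.01 and 4.56) and Eomes 0.30 lower (4.63 and 4.93), while Tbx18 (6.01 and 5.99) and Tbx20 (4.21 and 4.30) were within 0.1 of wild type. Neuronal genes were also higher in the knockout shelves. Of 12 neuronal markers, 11 were above 0, with a median of 0.52. Nefm entered through the knockout array alone and Elavl4 through the wild-type array alone, which fixed their directions. The mean level of the 12 was 8.43 in the knockout and 7.87 in wild type. The part of neuronal genes in the Tbr1 value was not tested.

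Genes of the cortical lineage that Tbr1 and Eomes belong to went both ways in the knockout shelves. Of the 9 that entered, 4 were above 0 and 5 below, with a median of -0.077 (-0.35 with the filter at the upper quartile). Among them Slc17a6 and Fezf2 entered through the knockout array alone, and Emx2 and Neurog1 through the wild-type array alone, which fixed their directions. The vesicular glutamate transporter gene Slc17a6 was at 6.19 in knockout shelves and 5.35 in wild-type shelves. The forebrain patterning genes Emx2 (5.86 and 7.05) and Lhx2 (7.79 and 8.52) were lower in the knockout, as was the proneural gene Neurog1 (5.48 and 6.18). Neurod6, a gene of young cortical neurons that did not enter, was at 4.75 in knockout shelves and 4.14 in wild-type shelves.

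In the knockout head, Eomes stood farthest from 0. Its level was 7.23 in the knockout and 6.65 in the wild type, a difference of 0.58 or 1.49-fold, and 0.493% of the 11364 genes that entered (56 genes) differed by at least as much. The difference of Eomes in the shelves had the opposite sign at levels below the limit, so its fitted genotype effect was 0.14 with an interval of -0.33 to 0.62 (95%). The other genes of the cortical lineage gave no such value in the head. Of 15 that entered, 7 were above 0 and 8 below, with a median of -0.0014, and they ranged from -0.45 for Insm1, a factor of newly formed neuronal progenitors, to 0.21 for Neurod6. Tbr1 itself was at 7.86 in the knockout head and 7.73 in the wild-type head, 0.13 higher.

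The other T-box genes of the head had small differences. Tbx18 was at 7.64 in the knockout head and 7.40 in the wild-type head (0.24 higher, reached by 10.0% of genes), Tbx2 at 7.19 and 6.98 (0.21, reached by 14.7%) and Tbx22 at 6.74 and 6.57 (0.17, reached by 21.7%). Tbx3 was at 8.15 in the knockout head and 8.21 in the wild-type head, and Tbx15 at 8.78 and 8.90. Tbx20, below the limit, was at 5.30 in the knockout head and 5.22 in the wild-type head. Of the 7 genes that entered the head pair, 5 were above 0 and 2 below, with a median of 0.17 beside -0.017 over all genes. With the filter at the upper quartile, which leaves out the dimmer of them, the median was -0.06, so its sign depends on the filter. Tbx1, the targeted gene, was 0.57 lower in the knockout head, a size that 0.537% of genes reached.

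Tbx22 lies on the X chromosome, and sex-linked genes differed between the head arrays. Xist, the RNA of the inactive X chromosome, was at 10.04 in the knockout head and 11.10 in the wild-type head. The Y-linked gene Eif2s3y was at 8.50 in the knockout head and 7.09 in the wild-type head. In the shelves they differed less, with Xist at 11.02 in the knockout and 10.89 in wild type, and Eif2s3y at 8.43 and 8.23. In the head both were past 2-fold (-1.06 for Xist and 1.41 for Eif2s3y), where 4 of 11364 genes were higher and 6 lower. The part of the sex-linked differences in the Tbx22 value, or in other head values such as that of Eomes, was not tested.

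**Figure D3:**
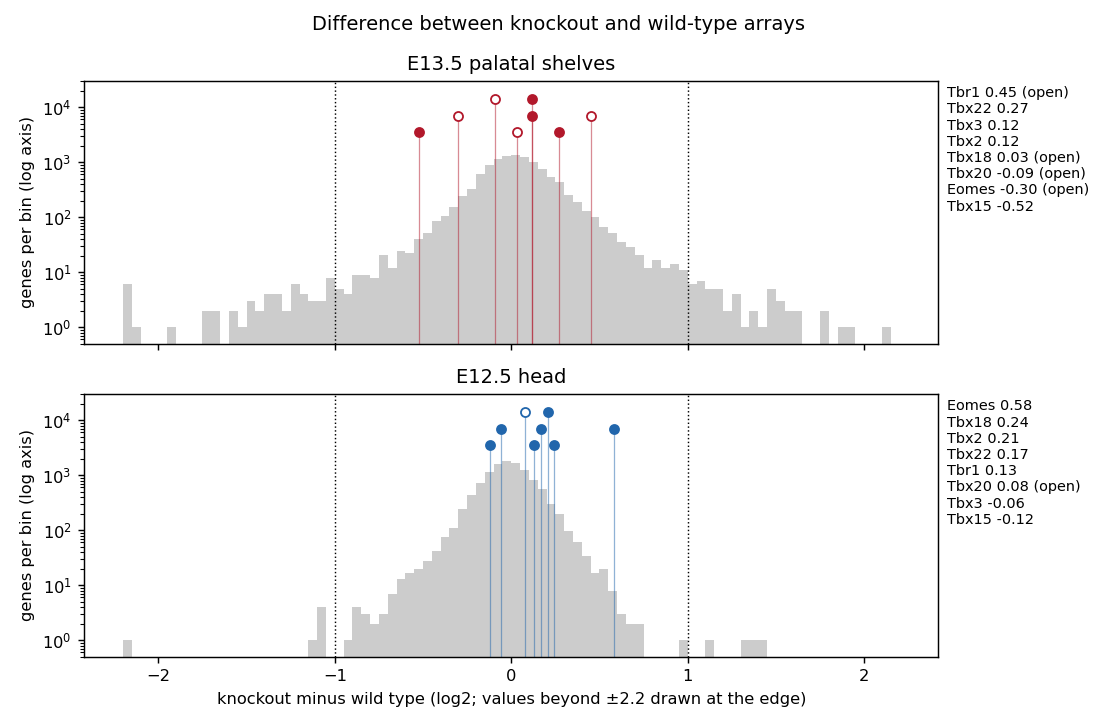
Knockout minus wild type (log2) of all genes that entered, as grey bars (number of genes per bin, log axis), with the T-box genes as circles above them, in the shelves and in the head. Open circles did not enter, dotted lines mark 2-fold, and all 8 genes lie between those lines, with Eomes at 0.58 in the head and Tbx15 at -0.52 in the shelves farthest out among those that entered.

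Over both tissues the fitted genotype effects lay between -0.32 for Tbx15 and 0.29 for Tbr1. For Tbx15 the effect was -0.32 (SE 0.13, limma adjusted p = 0.919, interval -0.62 to -0.02), lower in the knockout in both pairs. For Tbr1 it was 0.29 (SE 0.12, limma adjusted p = 0.919, interval 0.01 to 0.57), higher in both pairs, although its shelf values were below the limit. For Tbx22 it was 0.22 (SE 0.10, limma adjusted p = 0.919), also higher in both pairs. These intervals are not adjusted for the number of genes tested, and none of the 3 genes passed over all genes.

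For the genes whose interval reached above 0, the upper end of the 95% interval corresponded to 1.22-fold for Tbx3, 1.31-fold for Tbx18, 1.32-fold for Tbx2, 1.37-fold for Tbx22, 1.48-fold for Tbr1 and 1.53-fold for Eomes. The fitted effect of Tbx3 was 0.03 (limma adjusted p = 0.992), that of Tbx18 0.13 (limma adjusted p = 0.983) and that of Tbx2 0.16 (limma adjusted p = 0.960). A p that misses the threshold does not show that a gene was equal in both genotypes. Nor do these intervals bound the change of a gene. With 1 array per group they hold no spread between embryos or arrays of a group. Tbx10, the relative closest to Tbx1, had an effect of -0.24 (SE 0.12, limma adjusted p = 0.927), and Mga one of 0.04 (limma adjusted p = 0.987).

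The tissue pattern of the T-box genes was set beside that of genes of the cells in which each is known to act. Palatal shelf mesenchyme, where Tbx22 acts, had a median shelf minus head difference of 0.94, and 7 of 19 genes were past 2-fold toward the shelves, where 2.48% of all genes in the fit were. Sim2 had a difference of 2.27 and Foxf1, a target of hedgehog signalling, one of 2.12. Mn1, known to act upstream of Tbx22 in mouse palate, had a difference of -0.15 (limma adjusted p = 0.331), against 1.39 for Tbx22. Its levels were of 7.13 in knockout shelves, 7.16 in wild-type shelves, 7.36 in the knockout head and 7.23 in the wild-type head. Between genotypes, 15 of the 19 palatal genes were above 0 in the knockout shelves, with a median of 0.16 beside 0.021 over all genes, led by Foxf1 (9.95 in the knockout and 9.48 in wild type), and the 0.27 of Tbx22 lay within their range of -0.21 to 0.47.

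Genes of cranial dermis and skull mesenchyme, where Tbx15 and Tbx18 act, were split between the tissues. Of 13 that entered, 7 were called higher in the head and 2 higher in the shelves, where 14.9% and 13.0% of all genes were. Twist2 and Msx2, among the 13, entered through the head alone. Zic1, a dorsal neural and meningeal factor, had a shelf minus head difference of -3.80 and Lef1, a nuclear effector of Wnt signalling, one of -1.55. In the knockout shelves 9 of 11 were above 0, against the -0.52 of Tbx15. Zic1 differed most, at 7.49 in the knockout and 5.70 in wild type (it entered through the knockout array alone), followed by Lef1 (8.19 and 7.56) and Tfap2b (9.30 and 8.77). The frontonasal factor gene Alx1 went the other way, at 9.49 in the knockout and 9.93 in wild type. Of 8 pericyte genes, a cell type that expresses Tbx18, 4 were higher in the shelves and 1, the channel gene Kcnj8 (-0.65), was higher in the head. These 5 calls, beside 27.9% of all genes called either way, became 3 when each array was centred on its median and 1 of 10 with no filter, that of Kcnj8, so the count depends on the processing.

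The genes of the cortical lineage had the direction of Eomes and Tbr1. Of the 15 in the fit, 6 (among them Neurod6, Lhx9 and Reln) entered through the head alone and so had to be lower in the shelves. With no filter, 13 of the 18 genes with a value were called higher in the head, where 11.2% of all genes were called either way. Slc17a6, which also entered through the knockout shelves, had a difference of -3.15. Of 7 cranial motor neuron genes, the cells in which Tbx20 is known in the brain, 4 were called higher in the head and 1 higher in the shelves, but 3 of the 7 had entered through the head alone and 1, Slc5a7, through the shelves alone. These 5 calls, beside 27.9% of all genes called either way, became 3 of 12 with no filter, beside 11.2%. With a mean-variance trend in the prior they became 3 of 7, beside 34.5%. Isl1 had a difference of -1.02 and the choline transporter gene Slc5a7 one of 1.36. Of 8 genes of the dorsal and ventral retina, where Tbx2, Tbx3 and Tbx5 also act, 0 were called in either direction by limma at an adjusted p of 0.05, with 5 at an unadjusted p under 0.05 and 3 called with a mean-variance trend in the prior, a setting that called 34.5% of all genes.

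**Figure D4:**
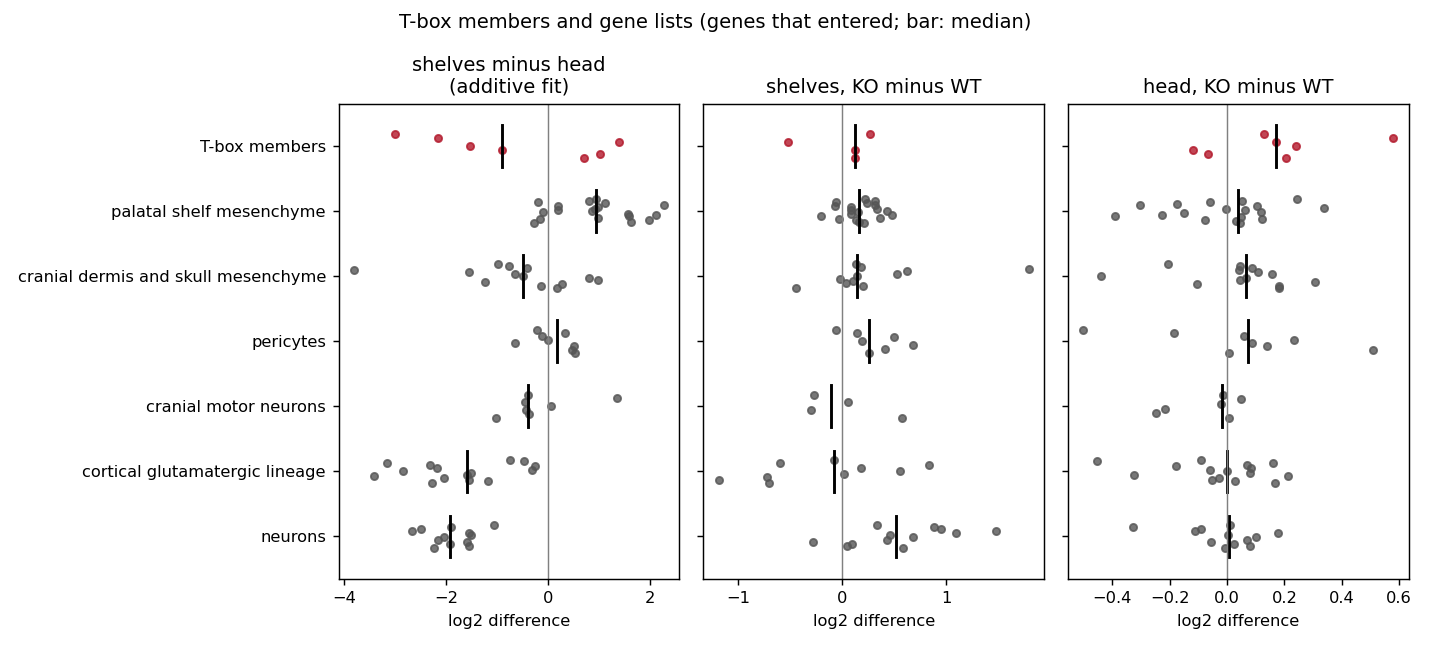
Log2 differences of the T-box genes (top row) and of 6 gene lists, with 1 point per gene that entered and a bar at the median, for shelves minus head, for knockout minus wild type in the shelves and for knockout minus wild type in the head; the scales of the panels differ. The T-box genes spread from -3.01 to 1.39 between tissues, while their knockout minus wild-type differences lie between -0.52 and 0.58.

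Genes with the profile most like each T-box gene over the 4 arrays were found by the root mean square difference between gene-centred log2 values, among 11272 genes. For Tbx22 the nearest were Cd44 (0.036), Bcam (0.054) and Adcy2 (0.054). For Tbx3 they were Kcnj2 (0.014), Lrrk2 (0.026) and the ephrin receptor gene Epha3 (0.026). For Tbx15 they were Pou3f1 (0.061), Srrm3 (0.063) and Gpr137b (0.063). With few arrays many genes come this close, and 134 genes lay within 0.2 of Tbx22, 423 within 0.2 of Tbx3 and 163 within 0.2 of Tbx15.

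The profiles of Tbr1 and Eomes had fewer neighbours. The distance is not scaled to the range of a gene over the arrays, so a wide range leaves fewer genes close by. That range was 3.30 for Tbr1 and 2.60 for Eomes, against 1.12 to 1.65 for Tbx3, Tbx15, Tbx22 and Tbx18. The lower counts are therefore not read as a trait of neural genes. For Tbr1 the nearest were Wnt8b (0.071), a gene of the medial forebrain edge, Igfbpl1 (0.082) and Pou3f2 (0.111), and 9 genes lay within 0.2. For Eomes they were Ctse (0.148), Dll3 (0.156) and Pax6 (0.158), and 4 genes lay within 0.2. Pax6, the factor of the progenitors that give rise to Eomes-expressing cells, was at 5.82 in knockout shelves and 6.04 in wild-type shelves, and at 8.28 in the knockout head and 8.11 in the wild-type head. For Tbx18 the nearest were Adarb2 (0.043), Dlx6os2 (0.048) and Slco5a1 (0.055), with 149 genes within 0.2. Tbx2 spanned less than 1 on the log2 scale over the arrays (0.87) and Tbx20 did not enter, so no neighbours were sought for them.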

How the data were processed

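RNA of 4 samples was hybridised to Affymetrix Mouse Gene 2.0 ST arrays. Each deposited value is the log2 expression of a transcript cluster. The authors used Affymetrix Expression Console with the RMA procedure, according to the submitters' processing notes, and versions and genome build are not given there. Groups follow the sample titles. The description field calls the E13.5 samples heads too, against the palatal shelves of every other field. Precision is limited by the number of arrays.

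Of 41345 clusters, 23521 had 1 gene symbol in the platform annotation, and 23328 of these matched a RefSeq gene table (GRCm38.p6) by Entrez identifier. Clusters of a gene were averaged. All genes with a value at or above 6.16 on some array (11999) were fitted with limma 3.58.1 in R 4.3.3 (lmFit and eBayes, genotype plus tissue, 1 residual degree of freedom, Benjamini-Hochberg adjustment over all of them). Differences within a tissue have no test. Replicates within a group were absent. The residual of the fit is therefore the difference of the knockout effect between shelves and head, moderated by the prior from all genes. The p-values, SEs and intervals thus do not measure spread between embryos or arrays of a group. The genes and lists were chosen with earlier results of these data known. Named genes are the 8 T-box genes, Tbx1, the other T-box genes, up to 4 genes per list and comparison with the largest absolute difference, and 3 profile neighbours per gene; Mn1 and the sex-linked genes, outside this rule, were named after values were seen. Lists of skeletal muscle and erythroid genes were also summarised. Alternatives were 3 other scalings, the brightest cluster, 2 other filters, 3 other variance priors and other folds for counts.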

Additional observations from a re-analysis of the deposited data

Results flagged for a closer look

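The knockout minus wild-type difference had opposite signs in the shelves and in the head for 3 of the 8 T-box genes. The share over all genes is not given here, so the count is not read as a trait of these genes. None of these differences between tissues was tested, because each rests on 1 array per group. Eomes was 0.30 lower in knockout shelves, at levels below the limit for entry, and 0.58 higher in the knockout head, so that the shelf difference minus the head difference was -0.88. For Tbx3 it was 0.19 (0.12 in the shelves and -0.06 in the head, sizes that 47.7% and 61.0% of genes reached). For Tbx20, dim in all arrays, it was -0.17 (-0.09 in the shelves and 0.08 in the head).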

How the results depend on the processing

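No paired analysis was possible because the labels give no replicate numbers and each group holds 1 array; tissue was a block in the fit. The tissue calls of the 7 T-box genes that entered held under all alternatives in which the gene could be fitted, with limma adjusted p up to 0.015. With the upper-quartile filter (7.79), Tbx18 and Eomes left the fit, so 2 rather than 4 genes were called higher in the head, and 1029 genes in all were called higher in the shelves. None of the 8 T-box genes was called for genotype under any alternative, and 0 were past 1.5-fold or 3-fold in either tissue. Tbx1, with a limma adjusted p of 0.555 as reported, was called with 1 common variance (adjusted p = 1.1e-06) and in 0 of the other 7 alternatives, where it ranged from 0.07 to 1. Over all genes, the mean-variance trend called 1 higher and 10 lower for genotype, and a common variance 82 and 68. Of genotype and tissue effects and pair differences of single T-box genes, 184 of 184 alternative values kept direction and side of the threshold or moved by less than 0.152. Of 198 list medians under alternatives, 12 moved by more than that, 11 of them with the upper-quartile filter, which leaves fewer genes. Brightness limits Tbx20 in all arrays, and Tbx18, Eomes and Tbr1 in the shelves.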

Other observations

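Outside the T-box genes and the tissues of the face, skeletal muscle genes had the lowest list medians between genotypes, -1.3 over 11 genes in the shelves and -0.78 over 12 genes in the head. Of these, 7 in the shelves and 4 in the head entered through the wild-type array alone and so had to be lower in the knockout. By limma 0 of 12 passed for genotype, as did 0% of all genes tested. At an unadjusted p under 0.05 were 12 of 12, where 5.23% of all genes were. With a mean-variance trend in the prior 6 were called, where 1 gene was called higher and 10 lower over all genes. With a common variance 10 were called, where 82 genes were called higher and 68 lower. Myod1, Myf5, Mylpf and Casq2 entered this fit through the wild-type arrays alone, which favoured a lower value in the knockout. Of 7 erythroid genes with a value, 6 entered the head pair, Kel and Epb42 through the wild-type array alone, and the 6 had a median of -0.40. Hbb-bh1, an embryonic globin gene, was at 8.88 in the knockout head and 9.45 in the wild-type head. Slc4a1, the red cell anion exchanger gene, was at 6.62 in knockout shelves and 6.71 in wild-type shelves, against 8.79 in the knockout head and 9.24 in the wild-type head.

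The 8 retina genes that entered went both ways in the knockout shelves, with 4 above 0 and 4 below. Six6 and Vax1, transcription factors of the ventral forebrain and eye, were higher in knockout shelves (6.85 and 6.36) than in wild-type shelves (5.68 and 5.55), but both entered through the knockout array alone. Six3 (6.03 in the knockout and 6.23 in wild type) and Aldh1a3 (6.88 and 7.13), also expressed in ventral forebrain or eye, went the other way. Six3 entered through the wild-type array alone and so had to be lower in the knockout. The dorsal retina gene Aldh1a1 was at 6.38 in knockout shelves and 7.41 in wild-type shelves.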
